A study of Mus musculus with 25 samples.

Results

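Genes of myelin and of mature oligodendrocytes were followed in hippocampal RNA-seq libraries of mouse pups. A list of 34 genes was named, and a gene was kept where its CPM (read counts scaled to a common library size) reached 1 in at least 3 libraries. Of the 34, 33 passed, out of 15123 of the 24421 gene symbols that did. The gene that failed was Klk6, a secreted serine protease, with 0 to 8 reads in a library and at most 0.409 CPM. The 33 genes also passed edgeR's filter, and all tests below were fitted over 15912 genes.

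The 25 libraries came from hippocampi taken on postnatal day 14 (P14) or 24 (P24) from mice that were wild type or Scn1a+/-. Scn1a encodes a neuronal voltage-gated sodium channel, and loss of a single copy is the mouse model of Dravet syndrome, a childhood epilepsy. One strain was 129S6/SvEvTac (129S6 below) and the other the first-generation cross [129S6/SvEvTac x C57BL/6]F1 (F1 below). At P14 there were 2 wild-type and 3 Scn1a+/- libraries on 129S6, and 3 and 3 on F1. At P24 there were 3 libraries labelled wild type and 3 labelled Scn1a+/- on 129S6, then 3 wild-type and 2 Scn1a+/- on F1. A ninth group held 3 libraries of P24 F1 Scn1a+/- mice with seizures, for which the labels give no time since the seizure. Each library pooled hippocampi, of 12 to 16 mice, or of 3 to 4 mice in the seizure group, so pool size and seizures cannot be told apart. Nothing states that the pools of a group held different litters, so the p-values measure only the spread between libraries. Unless another fit is named, that spread was estimated from all 9 groups together, not from the groups compared alone.

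Myelin is the membrane that oligodendrocytes wrap around axons, and in rodents most of it is laid down after birth. Precursor cells leave the cell cycle, pass through a short newly formed stage, and then switch on the genes of the sheath under the transcription factors Sox10 and Myrf. The sheath is built of membrane proteins, of basic proteins that hold its layers together, and of lipids rich in cholesterol and galactosylceramide, and its synthesis in the hippocampus runs through the ages sampled here.

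Libraries held 7436442 to 25520050 reads counted to genes. The hippocampal markers Prox1 (dentate granule cells), Wfs1 (CA1) and Grik4 (CA3) were at 54.7 CPM or more in every library. These 3 markers were chosen after their values were seen. Pmp2, a protein of peripheral myelin, was at 0 in 20 of the 25 libraries and at 4 reads at most in the rest. Other genes of the peripheral myelin list were found in every library: Pmp22 at 14.7 to 24.2 CPM, Prx at 2.96 to 7.18 CPM and Pou3f1 at 50.5 to 71.7 CPM. Mean Scn1a levels were lower in Scn1a+/- than in wild-type libraries at P14 (98.1 ± 4.68 against 111 ± 5.36 CPM on 129S6, and 91.1 ± 1.33 against 103 ± 2.22 on F1, SD, n as above). At P24 on F1 they were 127 ± 2.79 CPM in wild type, 104 ± 16.0 in Scn1a+/- and 79.9 ± 10.3 with seizures. At P24 on 129S6 the order went against the labels: with the label Scn1a+/- the mean was 140 ± 4.95 CPM, with the label wild type 110 ± 0.740, and the names of those libraries' files give the opposite genotype. The comparisons of age and of strain average both genotypes of a strain and do not depend on which label is right. Among the P24 F1 seizure libraries, the second had the highest level of the 3 for 24 of the 33 genes and the lowest for 0. That count was not made over all genes, so it has no background share. Over all genes it was the third that had the lowest limma-voom quality weight, 0.180 against 0.435 for the first and 0.414 for the second.

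The DNA before 4 of the genes is shown first, because these are the promoters in which the letters CTGGCAC, the core that Myrf binds, were found. Windows ran from 250 bases before to 50 bases after a gene's start (RefSeq, GRCm38.p6), and 24 of the named genes had at least 1 window outside the chromosome left out here, 33 windows in all. CTGGCAC, read on both strands, was in 5 of those 33 windows (15.2%) and in 5.01% of all 32851 windows. The 5 windows belong to Cnp, Hapln2, Mag and Opalin, and those of Mag overlap each other. In the lines that follow each window is written 5′ to 3′ along the gene, with matches to CTGGCAC or its reverse complement GTGCCAG, and to ACAAAG or ACAATG, core forms bound by SOX proteins, or their reverse complements CTTTGT and CATTGT, in capitals.
Cnp at chr11:100574689-100574988 (plus strand), Hapln2 at chr3:88027462-88027761 (minus strand), Mag at chr7:30914814-30915113 (minus strand) and Opalin at chr19:41077064-41077363 (minus strand) read:
Cnp: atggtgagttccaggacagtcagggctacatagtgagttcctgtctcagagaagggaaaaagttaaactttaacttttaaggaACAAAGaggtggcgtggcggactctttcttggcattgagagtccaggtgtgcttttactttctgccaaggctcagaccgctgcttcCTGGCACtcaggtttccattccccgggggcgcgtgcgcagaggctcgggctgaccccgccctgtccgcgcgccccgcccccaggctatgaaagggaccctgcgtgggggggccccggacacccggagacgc
Hapln2: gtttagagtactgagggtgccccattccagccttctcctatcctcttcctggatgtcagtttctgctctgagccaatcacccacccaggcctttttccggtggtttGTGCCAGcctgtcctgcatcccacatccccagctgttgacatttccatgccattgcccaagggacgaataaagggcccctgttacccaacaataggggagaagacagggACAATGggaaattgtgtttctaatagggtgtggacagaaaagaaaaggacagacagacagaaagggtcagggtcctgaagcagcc
Mag: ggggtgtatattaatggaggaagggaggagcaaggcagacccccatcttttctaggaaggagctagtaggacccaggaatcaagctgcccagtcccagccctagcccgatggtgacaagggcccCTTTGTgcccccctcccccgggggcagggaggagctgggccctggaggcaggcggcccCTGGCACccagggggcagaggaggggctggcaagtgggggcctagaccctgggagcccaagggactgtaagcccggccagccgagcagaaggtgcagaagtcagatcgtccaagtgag
Opalin: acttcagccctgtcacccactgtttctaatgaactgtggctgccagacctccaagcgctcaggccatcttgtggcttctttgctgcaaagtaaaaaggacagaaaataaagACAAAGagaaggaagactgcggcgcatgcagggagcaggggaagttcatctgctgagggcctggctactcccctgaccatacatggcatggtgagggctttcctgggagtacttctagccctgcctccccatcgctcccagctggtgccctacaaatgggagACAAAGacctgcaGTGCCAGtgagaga
Capitals in Cnp, Mag and Opalin mark both kinds of motif, with ACAAAG in each, and in Hapln2 they mark CTGGCAC and ACAATG. No match overlapped another. ACAAAG was in 27.3% of the 33 windows and 18.7% of all windows, and ACAATG in 15.2% and 12.6%. A match is a description of the letters, and binding was not measured. The 4 genes with CTGGCAC did not share a size of change: between P14 and P24 on 129S6 they differed by 3.08 (Hapln2), 1.45 (Opalin), 0.64 (Mag) and 0.47 (Cnp) on the log2 scale.

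Between P14 and P24 nearly the whole list rose. In 129S6, 30 of the 33 genes were higher and 1 was lower at P24 (edgeR quasi-likelihood test, Benjamini-Hochberg adjusted p under 0.05), against 17.3% of all genes tested higher and 17.1% lower. In F1, 31 were higher and 1 lower, against 19.0% and 19.4% of all genes. The median log2 fold change of the 33 was 1.03 in both strains, close to a doubling, and that of all genes was 0.01 in 129S6 and 0.00 in F1. On 129S6 and on F1 alike 18 genes rose at least 2-fold, and 2 of these, Hapln2 and Mal, at least 4-fold. Counts by size of rise were not made over all genes. Counting all named genes together, their share of a library's reads was 0.550 to 0.750% at P14 and 1.14 to 1.44% in the P24 libraries without seizures. In bulk tissue, more cells of a type and more RNA per cell cannot be told apart.

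**Figure D1:**
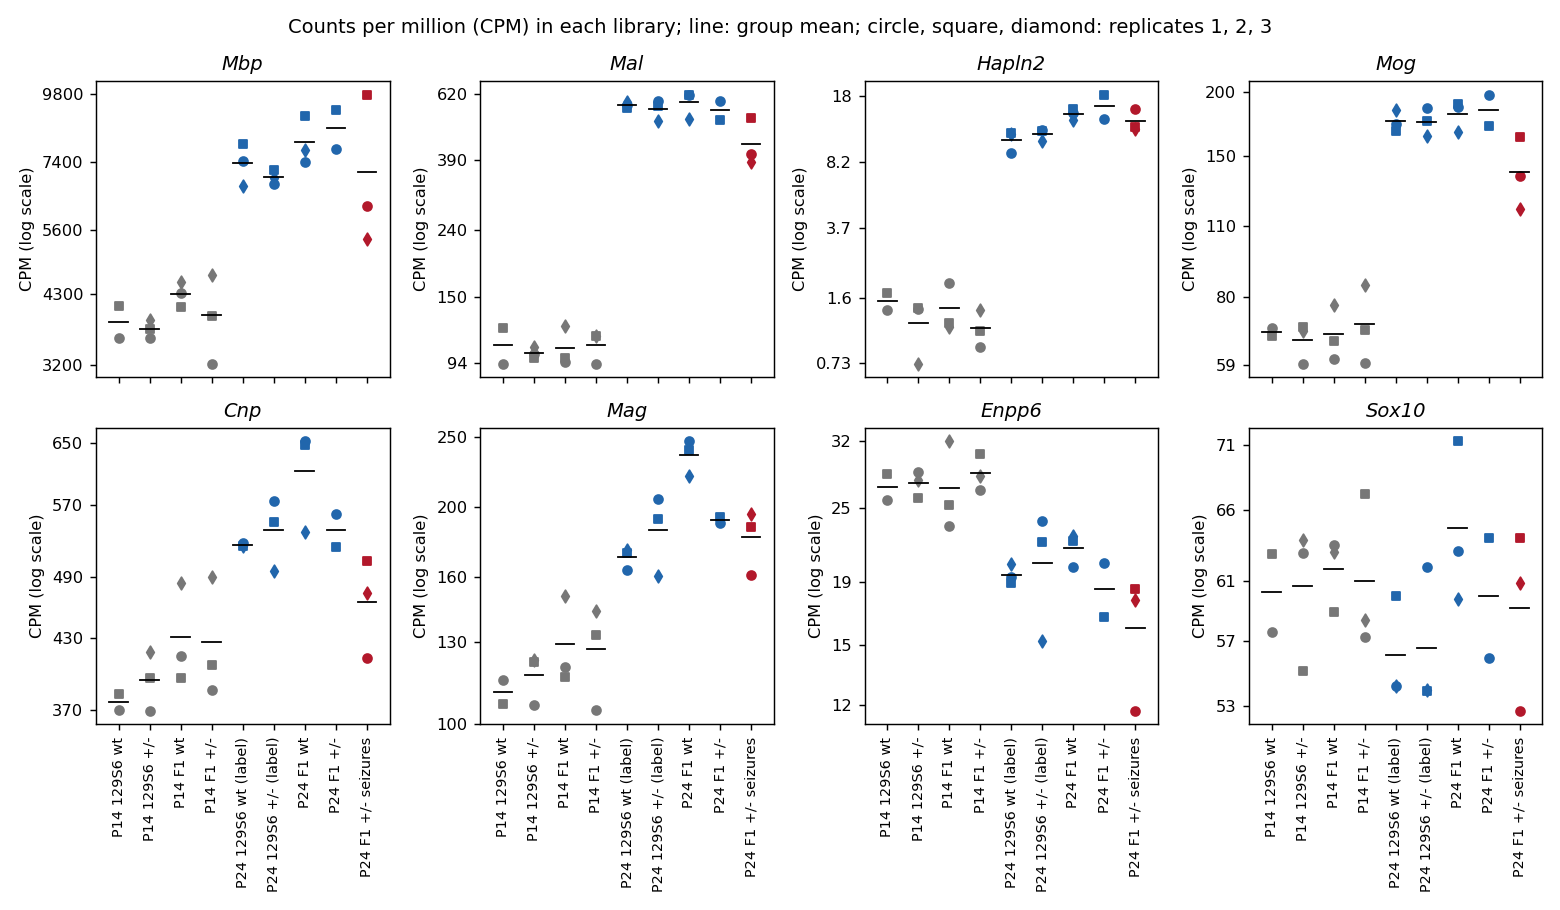
Levels (CPM) of 8 genes in each of the 25 libraries (y axes, log scale, each with its own range) by group (x axes), with P14 in grey, P24 in blue and P24 with seizures in red. The black line is the group mean. Mal and Hapln2 separate the ages most, Enpp6 is lower at P24, Sox10 overlaps between ages, and the second seizure library (square) lies above the other 2 for Mbp, Mal, Mog and Cnp.

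The genes of the sheath itself differed widely in how much they rose. Of the 14 sheath and membrane proteins, 13 rose in 129S6 and 14 in F1, with median log2 fold changes of 1.25 and 1.25. Hapln2, a link protein of the hyaluronan matrix at nodes of Ranvier, rose the most. Its 5 P14 libraries on 129S6 were at 1.41, 1.42, 0.726, 1.38 and 1.71 CPM, and the 6 at P24 at 9.11 (lowest), 11.5 (median) and 12.0 (highest). On F1 it went from 0.884, 1.16 and 1.91 CPM (lowest, median and highest of 6) to 13.8, 18.4, 14.7, 15.4 and 13.6 CPM. No P14 library reached the level of any P24 library, and the log2 fold changes were 3.08 ± 0.16 on 129S6 (SE, adjusted p = 4.27e-16) and 3.62 ± 0.16 on F1 (adjusted p = 6.82e-18) in the edgeR fit.

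Mal, a proteolipid that sorts proteins to the myelin membrane, was second in both strains and far more abundant. On 129S6 its P14 libraries held 101, 97.9, 106, 93.7 and 120 CPM, and its P24 libraries 513 (lowest), 574 (median) and 588 (highest). The F1 libraries ran from 93.9 to 122 CPM at P14 (median 105) and held 589, 517, 617, 618 and 521 CPM at P24. The ages did not overlap, with log2 fold changes of 2.44 ± 0.08 and 2.43 ± 0.08 (edgeR adjusted p = 5.42e-20 and 1.20e-20). Levels per kilobase divide by the length of all annotated exons, which can exceed that of the transcripts expressed, so ranks between genes are approximate. On that scale Mal moved from the fifth highest level of the 33 at P14 (median 35.6 CPM per kb) to the second at P24 (204 CPM per kb).

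Mbp, the basic protein that holds the cytoplasmic faces of myelin together, was the most abundant of the 33 per kilobase at both ages (median 403 and 765 CPM per kb). In CPM, its P14 libraries on 129S6 were at 3586, 3717, 3858, 3575 and 4089, and those at P24 at 6707 (lowest), 7057 (median) and 7993 (highest). Its log2 fold change of 0.93 ± 0.10 on 129S6 (adjusted p = 9.28e-09, edgeR) and 1.01 ± 0.10 on F1 (adjusted p = 7.06e-10) ranked 19 and 18 among the 33. Mbp alone took 0.323 to 0.469% of the reads at P14 and 0.670 to 0.931% at P24 without seizures.

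Mobp, another basic protein, Mog, a glycoprotein of the outer surface, Opalin, a sialylated membrane protein, and Ermn, an actin-binding protein, rose by 1.38 to 1.87 on the log2 scale on 129S6 and by 1.40 to 1.84 on F1. Mog went from 59.3 to 69.9 CPM at P14 to 164 to 186 CPM at P24 on 129S6 (lowest to highest library), and from 59.7 to 84.3 to 167 to 198 CPM on F1, without overlap. Cldn11, which forms the tight junctions between myelin layers, Tspan2, a tetraspanin, and Evi2a rose by 1.07 to 1.37 on 129S6. Smaller rises were found for Gjc3, a connexin (0.70 ± 0.06), Mag, the adhesion protein that faces the axon (0.64 ± 0.08), and Cnp, the cyclic nucleotide phosphodiesterase of non-compact myelin (0.47 ± 0.07). On F1 these were 0.86 ± 0.06, 0.74 ± 0.07 and 0.42 ± 0.07. Cnp had the second highest P14 level per kilobase (97.8 CPM per kb) and the third at P24 (133 CPM per kb). Pllp, plasmolipin, was at 68.4 to 71.9 CPM at P14 and 69.6 to 75.9 at P24 on 129S6 (log2 fold change 0.01 ± 0.05, adjusted p = 0.890), with overlapping ages. On F1 Pllp was higher at P24 by 0.18 ± 0.05 (adjusted p = 0.00668, edgeR).

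Of the 6 lipid and metabolic enzymes, 5 rose and 1 fell in each strain. Aspa, which splits N-acetylaspartate, ranked 3 on 129S6 (1.99 ± 0.13) and 4 on F1 (1.87 ± 0.13), and Fa2h, which hydroxylates the fatty acids of myelin lipids, rose by 1.14 ± 0.07 and 1.23 ± 0.07. Ugt8a, which makes galactosylceramide, rose by 0.43 ± 0.07 and 0.40 ± 0.07, Qdpr, a pteridine reductase, by 0.91 ± 0.05 and 0.84 ± 0.05, and Car2, carbonic anhydrase, by 0.23 ± 0.05 and 0.25 ± 0.05. Enpp6, a choline phosphodiesterase used as a marker of newly forming oligodendrocytes, was the gene that fell. On 129S6 its P14 libraries were at 28.5, 25.9, 27.7, 25.7 and 28.3 CPM and its P24 libraries at 15.2 (lowest), 19.8 (median) and 23.8 (highest), with no overlap. Its log2 fold changes were -0.46 ± 0.10 on 129S6 (adjusted p = 0.000855, edgeR) and -0.47 ± 0.11 on F1 (adjusted p = 0.000589).

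The 3 transcription factors went separate ways. Nkx6-2, a homeobox factor of maturing oligodendrocytes, rose by 1.47 ± 0.13 on 129S6 and 1.48 ± 0.13 on F1, and Myrf, which switches on myelin genes, by 0.57 ± 0.08 and 0.73 ± 0.08. Sox10, which is present through the lineage from precursor to mature cell, ranged from 55.1 to 63.8 CPM at P14 and from 53.9 to 61.9 at P24 on 129S6. Its log2 fold changes were -0.10 ± 0.07 on 129S6 (adjusted p = 0.251, edgeR) and 0.03 ± 0.07 on F1 (adjusted p = 0.781).

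All 3 measured secreted proteins rose in both strains: Trf, transferrin, the iron carrier (1.75 ± 0.10 on 129S6), Apod, a lipid-binding apolipoprotein (1.37 ± 0.09), and the metalloprotease Adamts4 (0.44 ± 0.10). The 7 cytoskeletal, signalling and stress proteins rose as well in both strains. Ndrg1 (1.76 ± 0.07 on 129S6) and Ppp1r14a, an inhibitor of myosin phosphatase (1.73 ± 0.11), led them, and Gpr37, an orphan receptor, had the smallest rise (0.38 ± 0.06). Between them lay the septin Sept4, the actin-severing protein Gsn, the actin-binding protein Anln and the small heat shock protein Cryab, at 0.86 to 1.03.

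**Figure D2:**
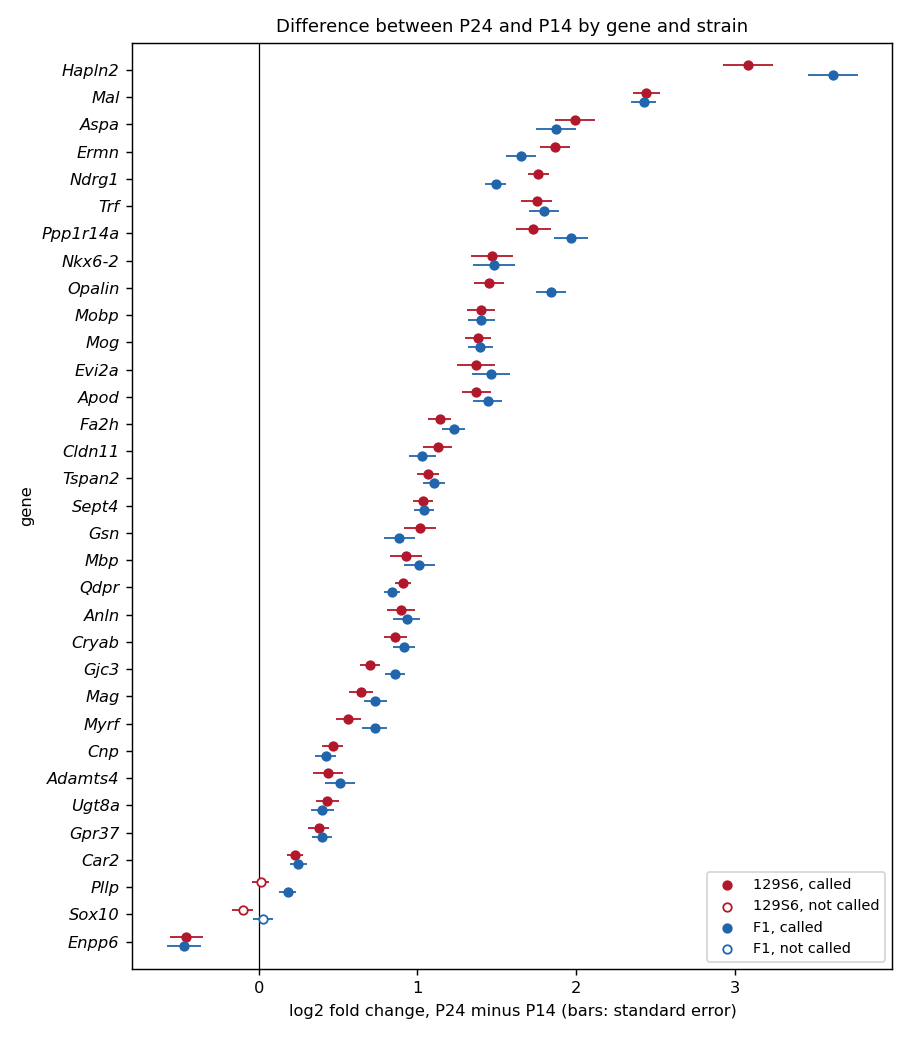
Log2 fold change between P24 and P14 (x axis) of each of the 33 genes (y axis), with its standard error, in 129S6 (red) and F1 (blue). Filled points passed an adjusted p of 0.05. Genes are ordered by the 129S6 value, from Hapln2 at 3.08 to Enpp6 at -0.46, and the F1 points follow closely the same order.

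The order of the rises was shared by the strains, which share no library. Of the 10 genes with the largest rise in each strain, 9 were the same, and over the 33 genes the log2 fold changes correlated with r = 0.981 and rho = 0.983, as a description across genes. The test of the difference itself, the rise on F1 minus that on 129S6, called 0 of the 33 (0.00628% of all genes were called, edgeR). At an unadjusted p under 0.05 it gave 4: Hapln2 (0.54), Opalin (0.39) and Pllp (0.17) with the larger rise on F1, and Ndrg1 (-0.27) with the larger rise on 129S6. Of all 15912 genes, 1295 were under that p, so 4 of 33 is little above the background. DESeq2 also called 0.

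Genes of earlier stages of the lineage moved the other way. Of 16 genes of oligodendrocyte precursors, 14 fell and 0 rose in each strain (median -0.40 on 129S6 and -0.43 on F1), with Gpr17, a receptor of committed precursors (-0.97 ± 0.05 on 129S6), and Traf4 (-0.95 ± 0.06). Of 15 genes of newly formed oligodendrocytes, 10 fell and 1 rose on 129S6, and 8 and 1 on F1. Rras2, a small GTPase, fell (-0.62 ± 0.06 on 129S6), and St18, a zinc finger factor, was the gene that rose (0.64 ± 0.07). Of 40 further genes of mature oligodendrocytes outside the list of 33, 33 rose and 5 fell on 129S6, and 34 and 4 on F1, with Dock10 (1.05 ± 0.06) and Plekhb1 (1.41 ± 0.08) first by p.

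Cholesterol genes went the opposite way to most of the sheath genes. Of 22 genes of cholesterol synthesis and uptake, which all cell types use, 17 fell and 1 rose on 129S6 and 16 fell and 1 rose on F1, with Hmgcs1 (-0.70 ± 0.05) and Tm7sf2 (-0.67 ± 0.07), enzymes of the pathway, lowest by p on 129S6. Of 18 sphingolipid, galactolipid and fatty acid enzymes, 7 rose and 1 fell on 129S6 and 5 and 3 on F1, led by the lipid transporter Abca2 (0.43 ± 0.05) and the ceramide synthase Cers2 (0.40 ± 0.06). Of 13 genes of the axonal node, paranode and juxtaparanode, the neuronal side of the contact with myelin, 6 rose and 1 fell on 129S6 and 7 and 3 on F1. The potassium channel gene Kcna1 (0.53 ± 0.06) and its partner Kcnab2 (0.64 ± 0.05), which lie under the myelin beside the paranode, came first. Of 7 measured genes of peripheral myelin, 1 rose and 1 fell on 129S6, and 1 rose and 0 fell on F1.

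Markers of other cells also differed between the ages. On 129S6, 5 of 10 microglia genes, 3 of 6 fibroblast genes and 4 of 7 genes of the thalamus and habenula, which adjoin the hippocampus, were lower at P24 and 0 of each higher. On F1 the counts lower were 3, 3 and 3, and those higher 1, 0 and 2. Astrocyte genes gave 4 of 10 lower and 1 higher in both strains, neuron genes 2 higher and 2 lower of 10 on 129S6 and 2 and 3 on F1, and endothelial genes 2 of 6 each way in both. Choroid plexus genes gave 2 of 6 higher and 0 lower on 129S6 and 1 each way on F1. Their part in the rise of the 33 genes was not tested.

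**Figure D3:**
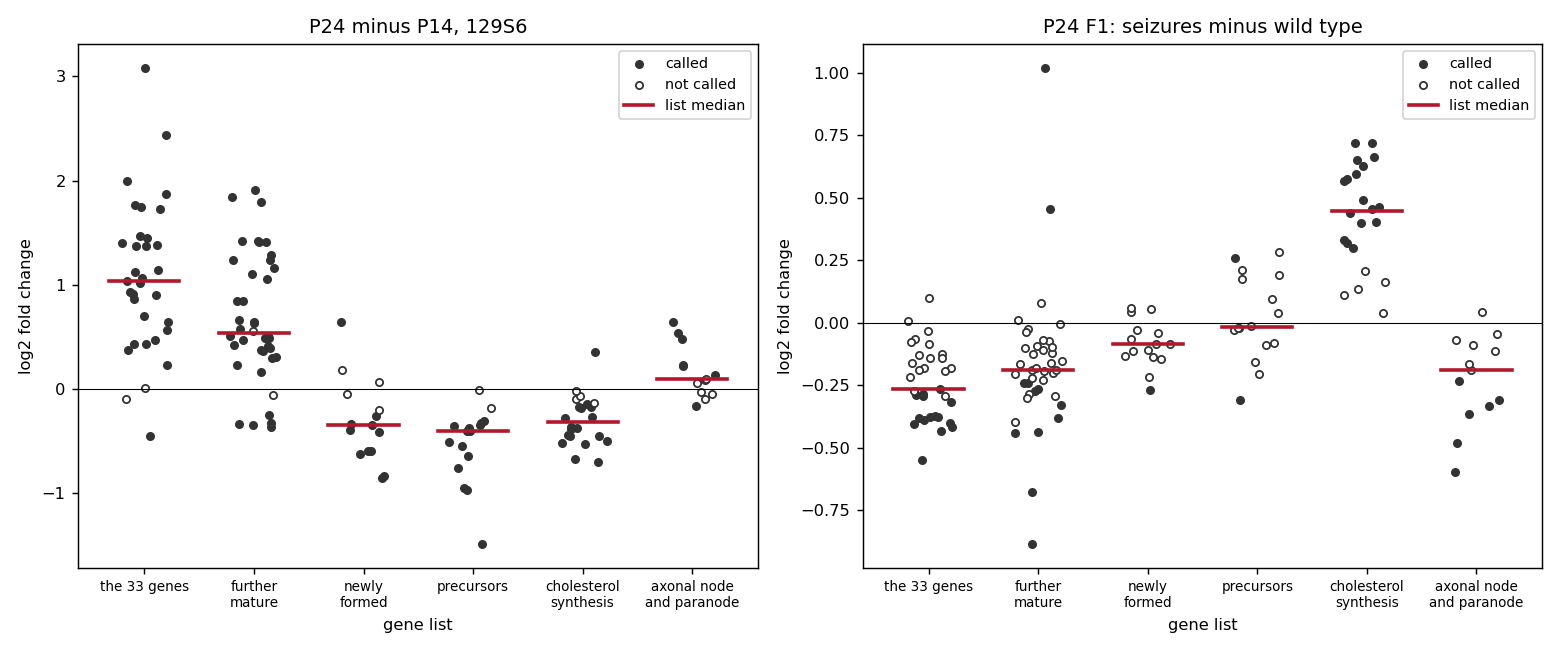
Log2 fold changes (y axes, different ranges) of the genes of 6 lists (x axis), each point a gene, filled where called at an adjusted p of 0.05, and the red line the list median. Left, P24 minus P14 on 129S6, with medians of 1.03 for the 33 genes and -0.40 for precursors. Right, P24 F1 seizure libraries minus wild type, with medians of -0.27 for the 33 genes and 0.45 for cholesterol synthesis.

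Fewer of the genes were called between strains than between ages. At P14, 2 of the 33 genes were higher in F1 than in 129S6, against 2.04% of all genes tested, and at P24, 6 were, against 3.46%. The counts depended on the fit: with no filter on low counts, with only the groups compared and without the seizure libraries, 4, 5 and 4 genes were higher at P14 and 11, 11 and 11 at P24, and limma-voom with quality weights gave 3 and 9. All genes called higher grew in number too. At P14 they went from 324 to 379, 565, 536 and 571 in these 4 fits. At P24 they went from 551 to 706, 1071, 1130 and 758, with 15319 to 20937 genes tested. In F1, 0 genes were called lower at either age by edgeR with all libraries and its filter, or by DESeq2. In each of those 4 other fits 2 were called lower at P14. At an unadjusted p under 0.05 with all libraries and the filter, 2 were lower at P14 (Gjc3 and Opalin) and 0 at P24. Either way, 10 and 12 of the 33 were under that p at P14 and P24, and 2195 and 3223 of all 15912 genes. The median log2 difference of the 33 was 0.03 at P14 and 0.09 at P24. Cryab, the small heat shock protein, was called at both ages. At P14 it was at 22.9, 21.5, 24.6, 23.9 and 25.0 CPM on 129S6 and at 31.0 (lowest), 32.8 (median) and 34.7 (highest) on F1, a log2 difference of 0.46 ± 0.08 (adjusted p = 0.000122, edgeR). At P24 it was at 38.6, 42.8 and 47.1 CPM (lowest, median, highest) on 129S6 and at 58.3, 62.2, 61.9, 69.1 and 59.0 on F1, a difference of 0.52 ± 0.07 (adjusted p = 2.49e-06). The strains did not overlap at either age.

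At P14 the other gene called was Gsn (0.35 ± 0.10, adjusted p = 0.0480, edgeR), whose strains overlapped. At P24 the others were Hapln2 (0.47 ± 0.11, adjusted p = 0.00578), Ppp1r14a (0.43 ± 0.09, adjusted p = 0.00197), Anln (0.27 ± 0.08, adjusted p = 0.0381), Mag (0.26 ± 0.07, adjusted p = 0.0298) and Pllp (0.20 ± 0.05, adjusted p = 0.0158). Without the second P24 F1 Scn1a+/- library 2 genes were called at P24. At P14, 1 gene was called without any of 7 libraries: the second or the third F1 Scn1a+/-, the third F1 wild type, the first or second 129S6 Scn1a+/-, or the first or second 129S6 wild type. Beside these, 5 of 10 microglia genes were higher on F1 at P24, led by the complement genes C1qc (0.39 ± 0.07) and C1qb (0.38 ± 0.08), and 2 of 6 choroid plexus genes were lower, led by Ttr (-0.66 ± 0.15). At P14, 0 microglia and 2 choroid plexus genes were called, and fibroblast genes were lower on F1 for 3 of 6 at P14 and 2 at P24. Of all genes tested, 1.66% were lower on F1 at P14 and 2.87% at P24. The part of these cell types in the strain differences of the 33 genes was not tested.

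**Figure D4:**
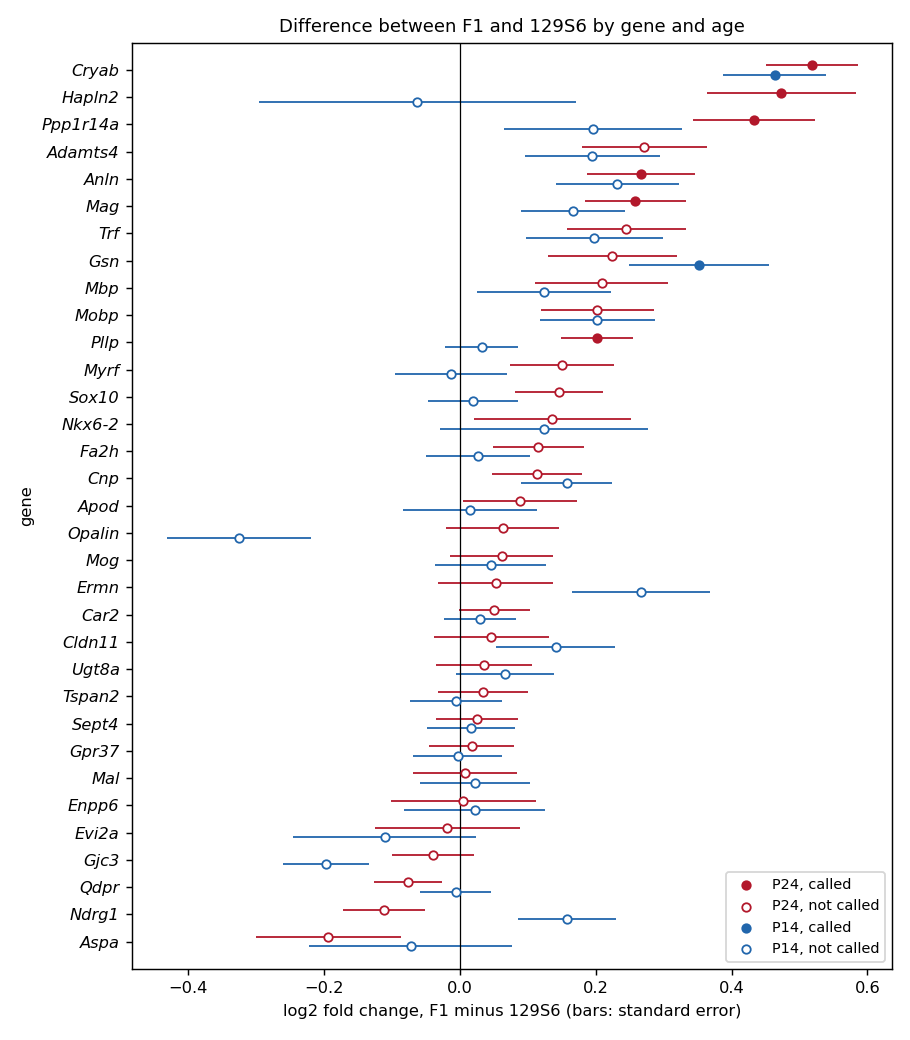
Log2 difference between F1 and 129S6 (x axis) of each of the 33 genes (y axis), with its standard error, at P24 (red) and P14 (blue). Filled points passed an adjusted p of 0.05, namely 6 at P24 and 2 at P14, all on the side of higher levels in F1, and only Cryab at both ages.

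Genotype without seizures gave no call among the 33 genes. Scn1a+/- against wild type was tested at P14 on 129S6, P14 on F1, P24 on 129S6 as labelled and P24 on F1. With all libraries and its filter, edgeR called 0 members and 0% of all genes in each, as did DESeq2. The count of all genes did not stay at 0 in other fits: at P24 on F1, edgeR called 92 genes higher and 108 lower in Scn1a+/- without the seizure libraries, and 7 and 2 with no filter on low counts, with 0 members among them in both. Before adjustment, p was under 0.05 for 391, 724, 471 and 889 genes in that order, among them 1, 2, 0 and 4 of the 33. The 4 on F1 at P24 were Mag (-0.30 ± 0.11), Cldn11 (-0.27 ± 0.13), Ndrg1 (-0.26 ± 0.09) and Fa2h (-0.23 ± 0.10), each at adjusted p = 0.833 in the edgeR fit and lower in Scn1a+/-. The medians of the 33 were 0.02, -0.01, -0.00 and -0.08. Calling the P24 129S6 libraries by their file names turns the sign of that comparison and leaves the count at 0.

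In the P24 F1 mice with seizures, part of the list was lower than in wild type. Of the 33 genes, 15 were lower (10.1% of all genes tested were), and 0 were higher in edgeR, in DESeq2 or at an unadjusted p under 0.05. In 11 genes every seizure library lay below every wild-type library, against 15.6% of all genes. The median log2 difference was -0.27, and that of all genes 0.01, and none of the 15 reached a 1.5-fold change. Against Scn1a+/- mice of the same age and strain without seizures, 7 of the 33 were lower (7.00% of all genes) and 0 higher, with a median of -0.19 and with 0 higher at an unadjusted p under 0.05. The 2 comparisons use the same 3 seizure libraries.

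Ndrg1, a stress-responsive protein of myelinating oligodendrocytes, differed the most from wild type. The seizure libraries held 45.7, 58.4 and 54.6 CPM, the wild-type libraries 81.6, 80.2 and 70.2, and the Scn1a+/- libraries without seizures 65.3 and 63.7. All 3 seizure libraries were below all 5 others, with log2 differences of -0.55 ± 0.08 from wild type (adjusted p = 2.99e-06, edgeR) and -0.29 ± 0.09 from Scn1a+/- (adjusted p = 0.0264). Enpp6, the marker of newly forming cells, was at 11.8, 18.5 and 17.7 CPM with seizures and 20.0, 22.0 and 22.5 in wild type, without overlap (-0.43 ± 0.14, adjusted p = 0.0197). Against Scn1a+/- at 20.4 and 16.7 CPM its difference of -0.20 ± 0.16 did not pass (adjusted p = 0.457).

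Of the 14 sheath and membrane proteins, 8 were lower than in wild type and 5 lower than in Scn1a+/-. Mal was at 406, 523 and 385 CPM with seizures, 617, 618 and 521 in wild type and 589 and 517 in Scn1a+/-. Its second seizure library overlapped both control groups (-0.42 ± 0.10, adjusted p = 0.00268 against wild type, and -0.33 ± 0.11, adjusted p = 0.0404 against Scn1a+/-, edgeR). Gjc3, the connexin, was at 87.9, 106 and 75.5 CPM against 115, 126 and 116 in wild type and 124 and 125 in Scn1a+/-. Its groups did not overlap in either comparison (-0.40 ± 0.08, adjusted p = 0.000266, and -0.47 ± 0.09, adjusted p = 0.000259).

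Mog was at 138, 163 and 119 CPM with seizures, below the 167 CPM of the lowest control library (-0.37 ± 0.10, adjusted p = 0.00609 against wild type, and -0.40 ± 0.11, adjusted p = 0.0124 against Scn1a+/-, edgeR). Cnp, at 413, 506 and 473 CPM against 652, 647 and 538 in wild type, differed by -0.40 ± 0.09 (adjusted p = 0.000910). Against the Scn1a+/- libraries, at 559 and 522 CPM, Cnp differed by -0.22 ± 0.10 (adjusted p = 0.134). Mag differed by -0.38 ± 0.10 from wild type (adjusted p = 0.00442), at 161, 188 and 196 against 247, 240 and 221 CPM, and by -0.08 ± 0.11 from Scn1a+/- (adjusted p = 0.704), at 190 and 194 CPM. Cldn11, Mobp and Tspan2 were lower than wild type by 0.38, 0.32 and 0.27 on the log2 scale, and Mobp (-0.40 ± 0.12) and Pllp (-0.23 ± 0.08) lower than Scn1a+/-.

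Among the other roles, the lower genes against wild type were Apod (-0.39 ± 0.11), Sept4 (-0.38 ± 0.08), Myrf (-0.29 ± 0.10, adjusted p = 0.0313), Anln (-0.29 ± 0.10) and Fa2h (-0.29 ± 0.09). Of these Sept4 also passed against Scn1a+/- (-0.28 ± 0.09, adjusted p = 0.0290, edgeR). In all, 6 genes passed both: Gjc3, Mal, Mobp, Mog, Ndrg1 and Sept4. Ugt8a (-0.19 ± 0.09, adjusted p = 0.140 against wild type), Opalin (-0.14 ± 0.11, adjusted p = 0.386) and Sox10 (-0.13 ± 0.08, adjusted p = 0.288) did not pass in either. Of the genes that rose at least 4-fold with age, Mal was lower with seizures, while Hapln2 was at -0.13 ± 0.14 from wild type (adjusted p = 0.569) and -0.28 ± 0.16 from Scn1a+/- (adjusted p = 0.255). Over the 33 genes, the 129S6 age differences, which use none of the F1 libraries, correlated with the seizure differences from wild type at r = 0.0693 and rho = 0.0709, as a description. With the seizure differences from Scn1a+/- without seizures the same age differences correlated at r = -0.160 and rho = -0.230, so the sign depended on the control group.

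**Figure D5:**
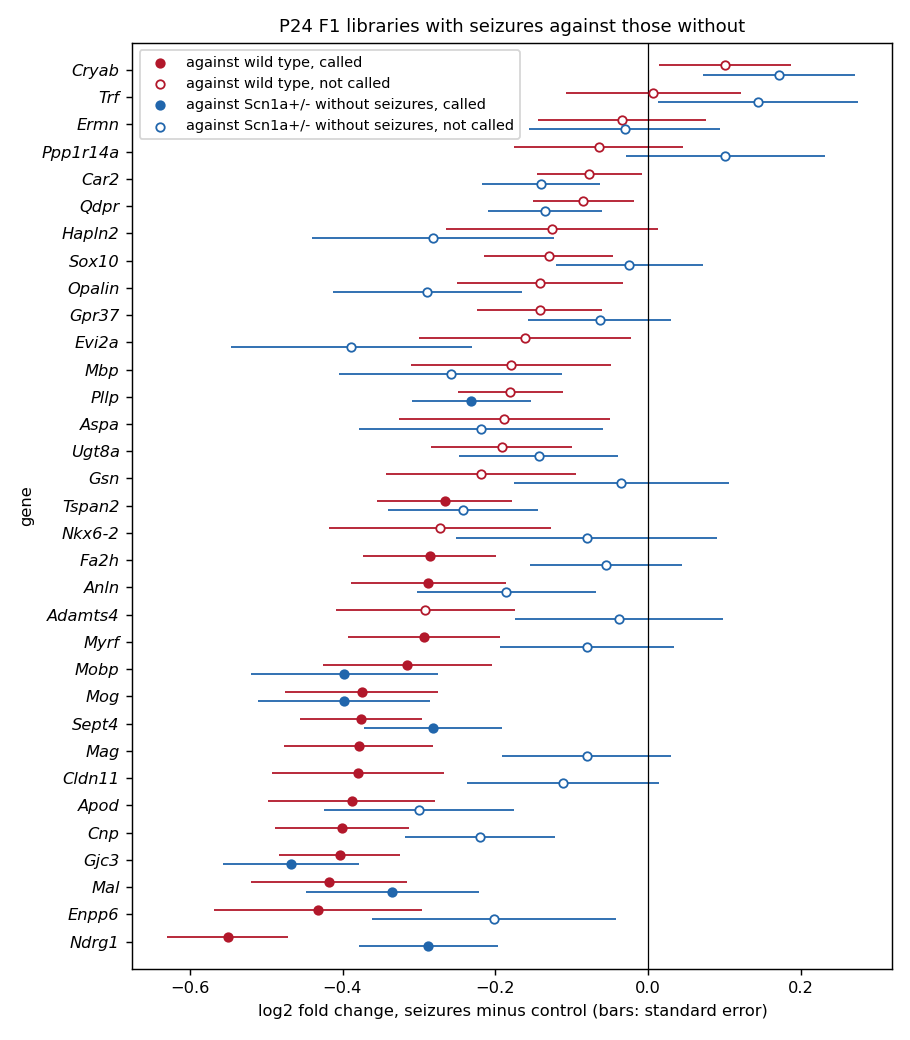
Log2 difference (x axis) of each of the 33 genes (y axis), with its standard error, between the P24 F1 seizure libraries and wild type (red) or Scn1a+/- without seizures (blue). Filled points passed an adjusted p of 0.05, 15 against wild type and 7 against Scn1a+/-, all to the left of 0. Ndrg1 is lowest against wild type and Gjc3 against Scn1a+/-.

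The 3 seizure libraries differed in how many of the genes lay below wild type. Relative to all wild-type libraries, 27, 15 and 28 of the 33 genes lay below in the first, the second and the third, and the medians to the wild-type mean were -0.33, -0.12 and -0.35 on the log2 scale. Counts for single libraries were not made over all genes, so they have no background share. Mbp varied the most (coefficient of variation 32.9%), at 6170, 9795 and 5401 CPM against 7423, 8971 and 7803 in wild type and 7831 and 9203 in Scn1a+/-, so that the second was the highest P24 library and the third the lowest. Its difference from wild type was -0.18 ± 0.13 (adjusted p = 0.359, edgeR) with all 3, and -0.48 ± 0.10 (adjusted p = 0.000595) without the second. The median coefficient of variation of the 33 genes was 13.4% over the seizure libraries and 5.11 to 12.7% in the other groups, and that of all genes at a mean of 1 CPM or more was 12.2% and 4.95 to 7.88%. The main fit shares its spread over all groups, so its seizure standard errors and p-values do not carry the wider spread of the seizure libraries in full.

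Without the second seizure library 20 of the 33 genes were lower than in wild type, and 14 lower than in Scn1a+/-. Without the first or the third, 10 and 13 were lower than in wild type. Of all genes, 1653, 1273 and 2426 were lower than in wild type without the first, the second and the third, against 1613 with all 3. Without the second wild-type library 9 of the 33 were lower than in wild type. Against Scn1a+/- the count was 4, 3, 3 and 4 without the first or the third seizure library or the first or second Scn1a+/- library, and 1 gene was higher without the third seizure library. In all 6 such fits against wild type 8 genes stayed lower: Apod, Cnp, Gjc3, Mag, Mal, Mog, Ndrg1 and Sept4. In all 5 against Scn1a+/- Gjc3 did. With only the libraries of the 2 groups in the fit, so that the spread came from them alone, 4 genes passed against wild type (Apod, Cnp, Mag and Ndrg1) and 0 against Scn1a+/-. Of all genes 707 and 207 were then lower, against 1613 and 1114 in the main fit. With limma-voom and library quality weights 1 of the 33 passed against Scn1a+/-.

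The other lists are read against 12.4% of all genes higher and 10.1% lower than in wild type, and 8.72% higher and 7.00% lower than in Scn1a+/-. Of 40 further mature oligodendrocyte genes, 10 were lower and 2 higher than in wild type, with the tetraspanin Cd9, which astrocytes and other cells also express, highest (1.02 ± 0.09) and Ptgds, prostaglandin D synthase, lowest (-0.88 ± 0.10). Of the 16 precursor genes 1 was lower and 1 higher, Tnr, a matrix protein (-0.31 ± 0.09), and C1ql1 (0.26 ± 0.09). Of the 15 newly formed genes 1 was lower, Sox8 (-0.27 ± 0.07). The counts of precursor and newly formed genes were no higher than those shares of all genes. Cholesterol synthesis went the opposite way to the sheath genes: 17 of 22 genes were higher and 0 lower in each comparison, with medians of 0.45 and 0.46, led against wild type by Msmo1 (0.72 ± 0.06) and Sqle (0.72 ± 0.07). Of the 13 axonal genes 6 were lower than in wild type and 3 lower than in Scn1a+/-, with Cntnap1, the axonal protein of the paranode, at -0.60 ± 0.08 and -0.35 ± 0.09. Of the 18 sphingolipid, galactolipid and fatty acid enzymes 1 was higher and 2 lower than in wild type. Of the 7 peripheral myelin genes 1 was higher, Egr2 (1.76 on the log2 scale), which neuronal activity also induces, and 1 lower, Prx (-0.62).

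Markers of other cells gave these values in the seizure libraries against wild type. Of 10 neuron genes 5 were higher and 1 lower (summed 4686 to 6796 CPM against 5134 to 5871), and of 10 astrocyte genes 4 were higher, led by Gfap (2.31 ± 0.10), and 5 lower (9441 to 10673 against 8549 to 9278 CPM). Of 10 microglia genes 3 were higher, led by C1qb (0.63 ± 0.10), and 0 lower (470 to 582 against 469 to 510 CPM). Of 6 endothelial genes 1 was higher and 1 lower (155 to 182 against 172 to 189 CPM), and of 6 fibroblast genes 1 was higher and 2 lower (98.3 to 120 against 135 to 146 CPM). Of 6 choroid plexus genes 0 were called (433 to 912 against 611 to 723 CPM), and of 7 genes of the thalamus and habenula 1 was higher and 3 lower (171 to 180 against 171 to 185 CPM). Against Scn1a+/- the counts higher and lower were 6 and 0 for neurons, 4 and 5 for astrocytes, 2 and 0 for microglia, 0 and 1 for endothelial cells, 2 and 2 for fibroblasts, 0 and 0 for choroid plexus, and 1 and 1 for thalamus and habenula. Their part in the differences of the myelin genes was not tested.

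For most of the list the seizure libraries were above P14. Against the P14 F1 Scn1a+/- libraries 27 of the 33 genes were higher (15.9% of all genes) and 1 lower (14.7%), with a median log2 difference of 0.81. The 4 largest were Hapln2 (3.57 ± 0.23), Ppp1r14a (2.05 ± 0.15), Mal (2.03 ± 0.11) and Trf (1.82 ± 0.13), and Enpp6 was the lower gene (-0.83 ± 0.14, adjusted p = 2.84e-05, edgeR). Relative to all 3 P14 libraries, 28, 30 and 27 genes lay above in the first, the second and the third seizure library, a count that was not made over all genes. Mbp (0.86 ± 0.13), Mog (0.98 ± 0.11), Opalin (1.64 ± 0.13), Mag (0.52 ± 0.10) and Myrf (0.56 ± 0.11) were each higher. Cnp (0.12 ± 0.09, adjusted p = 0.336), Ugt8a (0.19 ± 0.10, adjusted p = 0.130), Car2, Pllp and Sox10 did not pass, with Car2, Pllp and Sox10 at 0.17, 0.01 and -0.04.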

How the data were processed

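Total RNA of pooled hippocampi was prepared with TRIzol and sequenced from TruSeq libraries, a kit that does not mark strand, in 25 samples of 9 groups. The authors deposited raw read counts per gene symbol, and the tools listed in the submitters' processing notes are HTSeq 0.6.1p1, TopHat2 2.1.0 and CASAVA, with mm10 as build. Library totals of 7436442 to 25520050 reads set the precision, with a common biological coefficient of variation of 7.57%. Counts were fitted with edgeR 4.0.16 (R 4.3.3) quasi-likelihood in a single 9-group model with TMM, filterByExpr at a minimum count of 10, and 16 residual degrees of freedom, and Benjamini-Hochberg adjustment over all genes. Fitting steps were tested on simulated data. Levels are CPM by effective library size, divided for levels per kilobase by the exonic length of all transcripts in GENCODE, an annotation of another build used for lengths only. Groups follow the sample titles. Alternatives were DESeq2 1.42.0, limma 3.58.1 voom with quality weights, other size factors, filters and library sets. The members and lists were chosen with earlier results of these data known. In each comparison the rule names the 4 largest called changes each way, 10 fixed genes, and up to 2 genes of each other list by p, and values of further members were added after they were seen.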

Additional observations from a re-analysis of the deposited data

Results flagged for a closer look

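Qdpr and Fa2h were flagged because every library of one genotype lay on opposite sides of the other in different strains or ages. Such separation was common: over all genes, 9.59% were higher and 9.38% lower without overlap in Scn1a+/- at P14 on 129S6. At P24 these shares were 5.84% and 4.88% on 129S6 as labelled, and 14.3% and 14.8% on F1. Qdpr was higher in Scn1a+/- at P14 on 129S6 (0.13 on the log2 scale) and lower in the libraries labelled Scn1a+/- at P24 on 129S6 (-0.0371), whose labels go against the Scn1a level. By the file names of those libraries the second sign turns, and Qdpr is then higher in Scn1a+/- at both ages. Fa2h was higher in Scn1a+/- at P14 on 129S6 (0.19) and lower at P24 on F1 (-0.23). None of these 4 differences passed edgeR's adjusted p, and the difference between the groups was not tested.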

How the results depend on the processing

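Among the genes called, 1896 of the refitted values kept their direction and side of the threshold, 96 kept the direction only, and 0 reversed. Leaving out 1 library at a time, the age counts stayed at 30 higher on 129S6 and 30 to 31 on F1, with 1 lower in both. Those counts ran from 1 to 2 for higher at P14 between strains, 2 to 7 at P24, 9 to 20 for lower against wild type with seizures, and 3 to 14 lower and 0 to 1 higher against Scn1a+/-. Against P14 they were 25 to 28 higher. For the 4 genotype comparisons and the strain difference in the rise they stayed at 0. Between strains at P14, with no filter, with only the groups compared and without the seizure libraries, 4, 5 and 4 genes were higher and 2, 2 and 2 lower. At P24 the same 3 settings gave 11, 11 and 11 higher, while all genes called higher grew from 551 to 706, 1071 and 1130. DESeq2 gave 1 higher and limma-voom 2 lower at P14. Seizure counts lower were 4 against wild type and 0 against Scn1a+/- with only the groups compared, and 1 against Scn1a+/- with limma-voom. At 1.5-fold or more, 0 genes were lower with age in either strain, 0 higher between strains at either age, and 0 lower with seizures in either comparison, since that threshold exceeds those changes. Other causes were not tested. No paired analysis was possible because the titles number libraries over the whole series, so groups share no replicate numbers. Depth limits Hapln2 at P14 and Klk6, and 2 or 3 libraries a group limit every contrast.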
